A study of Mus musculus with 9 samples.

Results

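The RNA recovered from mouse embryonic stem cells (ESCs) that carried FLAG-HA-tagged WDR5 was compared with the RNA recovered from cells that carried no tagged protein. The members were 6 of the 9 libraries of the series, chosen by their labels. They are 2 immunoprecipitations (IPs) and 1 input of the wild type (WT) line, and 2 IPs and 1 input of the empty vector (EV) line. The IPs were compared directly, without subtracting an input, over the 9787 of 24132 gene symbols that reached an RPKM of 1 in 2 or more of the 9 libraries. RPKM are reads scaled by transcript length and by mapped reads. Each gene was then set against the inputs of both lines, and input values are printed for some of the genes named.

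All lines were made from V6.5 ESCs, a male 129 by C57BL/6 hybrid line, with lentiviral N103 vectors that give puromycin resistance. The WT vector encoded human WDR5 with an N-terminal FLAG-HA tag, the EV vector held no cDNA, and the third line expressed tagged human WDR5 F266A. The F266A construct was also truncated at its N-terminus, which the paper states leaves function in vivo and MLL complex formation unaffected. The lines were grown from isolated clones, with the tagged ones picked for a near-endogenous protein level, so differences between clones cannot be told apart from effects of the tagged protein. All cells were fixed with 1% formaldehyde for 15 min, and complexes were purified through FLAG and then through HA before 50 nt sequencing (RIPiT-seq). The 2 IPs of a line are labelled as replicates, and the labels do not say whether they came from separate cultures.

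WDR5 is a WD-repeat protein shared by the MLL and SET1 complexes, which methylate histone H3 at lysine 4. It binds the methylase subunit and RbBP5, and it is known to bind RNA such as HOTTIP. A tandem purification from cells without a tag measures the RNA that comes through both steps without a bait, so the EV IPs are the background of the WT IPs.

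The WT IPs held an estimated 27300000 and 26500000 mapped reads and the EV IPs 25000000 and 13400000, against 42800000 for the WT input and 50200000 for the EV input. Reads on genes made up 28.4% to 29.5% of the 4 IPs, and 22.3% and 22.6% of the inputs. The ESC markers were present. All 9 of 9 ESC markers reached an RPKM of 1 in all 9 libraries, and their summed RPKM was between 551.6 and 837.7 in the WT and EV libraries. The summed RPKM of 8 fibroblast markers was between 0.925 and 1.61 there, and 3 of them were at 0 in all 9 libraries. Of 10 primitive endoderm markers, 5 were under an RPKM of 1 in all 9 libraries. The F266A line enters the test through the shared estimate of the spread and through the filter, which counts its libraries. Its IP replicate 1 stood apart from the other libraries of that line, with Eif2s3y at an RPKM of 0 where its input had 1.88 and its other IP 3.73. That library also correlated more closely with WT IP replicate 1 (Pearson r = 0.976 over the genes tested) than with its own line's other IP (r = 0.973). Its place in the F266A line was not tested, and the F266A IP values below are given with that limit. The 2 WT IPs correlated with each other at r = 0.979, below the 0.980 to 0.983 of each with the EV IPs, and the 2 EV IPs at r = 0.990.

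No gene passed an adjusted p of 0.05 between the WT and EV IPs with limma over all 9 libraries, which is 0.0% of the 9787 genes tested. At an unadjusted p under 0.05 there were 557 genes, 251 higher and 306 lower in the WT IPs, and the lowest adjusted p was 0.0535, for Sept1. The means of the IPs differed by a median of 0.11 between the lines on the log2 (RPKM + 1) scale in absolute terms. Single libraries of a line differed by a median of 0.15 (WT IPs) and 0.10 (EV IPs). The count depended on the F266A IPs, which enter the estimate of the spread. In a fit to the WT and EV libraries alone, and with 1 or the other F266A IP left out, which leaves the F266A IPs no spread of their own, the same 7 genes passed the threshold. Eif2s3y, Uty, Ddx3y, Sept1, Tax1bp1 and Hibadh were lower in the WT IPs, and Snora68 was higher. With 2 libraries against 2, an exact permutation test of a single gene cannot go below p = 0.333 (two-sided).

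Counted without a test, 2077 genes (21.2%) had both WT IPs above both EV IPs and 1740 (17.8%) had both below. A gap of at least 1.5-fold between the closest libraries on the log2 (RPKM + 1) scale was left for 9 genes higher (0.092%) and 23 genes lower (0.235%) in the WT IPs. The inputs shared the direction of these largest differences. The WT input was below the EV input for 22 of the 23 lower genes, by at least 0.5 of the IP difference in 19 of them, and above it for 7 of the 9 higher genes, by at least 0.5 of it in 5. Among the 100 genes with the largest gap and at least 50 estimated reads, the inputs had the same sign for 88 in the higher direction and 87 in the lower. Over all genes tested, 50.1% had a higher WT input. Across the 9787 genes the IP difference and the input difference correlated with r = 0.33, and across the 8614 with at least 50 estimated reads with r = 0.45. These genes are not independent replicates, and each point shares its library with all others.

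**Figure D1:**
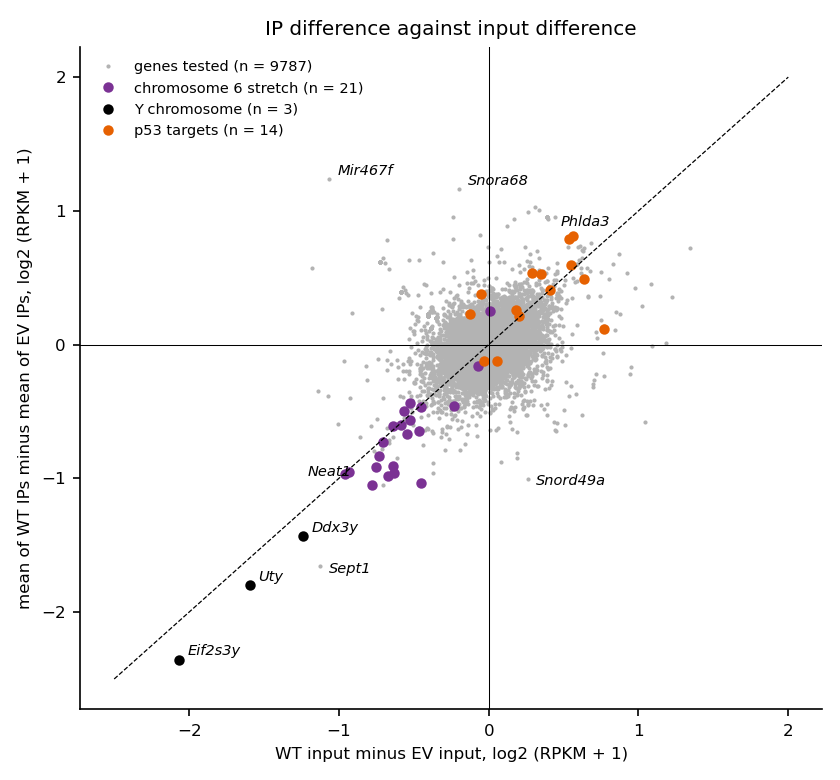
Difference of the mean WT and EV IPs (vertical axis) against the difference of the WT and EV inputs (horizontal axis), both on log2 (RPKM + 1), for the 9787 genes tested (grey), 21 neighbouring genes of chromosome 6 (purple), 3 genes of the Y chromosome (black) and 14 p53 targets (orange). The dashed line marks equal differences. Most coloured genes lie on the same side of 0 on both axes, not all near the line, and Snora68, Mir467f and Snord49a lie far from it.

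When the input difference was subtracted within the same fit, no gene passed an adjusted p of 0.05 in limma, with 173 genes at an unadjusted p under 0.05. The inputs have 1 library per line, so the spread of this contrast comes from the IP pairs.

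The largest gaps between the IPs on log2 (RPKM + 1) were in the Y-linked genes Eif2s3y and Uty, at 2.31 and 1.77. Sept1 on chromosome 7 followed at 1.45, and the Y-linked Ddx3y at 1.36. Eif2s3y, a subunit of translation initiation factor eIF2 encoded on the Y chromosome, had an RPKM of 4.92 and 4.90 in the EV IPs against 0.122 and 0.189 in the WT IPs, with 3.83 in the EV input and 0.155 in the WT input. Uty, a JmjC-domain protein related to the H3K27 demethylase UTX, had 2.61 and 2.48 in the EV IPs against 0.021 and 0.014 in the WT IPs. Ddx3y, a DEAD-box RNA helicase, had 1.95 and 1.87 against 0.039 and 0.121. All 3 were near 0 in every WT library and above 1 in every EV library, the inputs included. The ratio of the mean RPKM of the EV IPs to that of the WT IPs was 31.6 for Eif2s3y, 144 for Uty, which had 4.4 and 2.9 estimated reads in the WT IPs, and 23.9 for Ddx3y. On the log2 scale the limma difference of Eif2s3y was -2.36 (SE 0.57, adjusted p = 0.56), and the adjusted p was 8.35e-04 without the F266A libraries. The zinc finger genes Zfy1 and Zfy2, too low to be tested, lay between 0.225 and 0.398 in the EV IPs and at 0 or 0.014 in the WT IPs. In such bulk libraries fewer cells with a transcript and less of it per cell cannot be told apart.

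Sept1, a septin of the GTP-binding cytoskeletal family, was the lowest gene outside the Y chromosome (mm9 chr7:134357961-134362012). It had an RPKM of 20.6 and 21.6 in the EV IPs against 5.22 and 6.87 in the WT IPs, 10.6 in the EV input and 4.32 in the WT input. The WT IPs were 3.49-fold below the EV IPs in mean RPKM, with a limma difference of -1.66 (SE 0.16, 95% interval -2.02 to -1.29, adjusted p = 0.0535). Both F266A IPs, at 7.25 and 5.61, lay near the WT IPs. Neat1, the long noncoding RNA that forms paraspeckles (chr19:5824708-5845478), had 13.1 and 13.3 in the EV IPs against 6.72 and 7.66 in the WT IPs. Its inputs differed by as much, at 11.4 and 6.31, and both F266A IPs were at 5.90 and 5.54. Its limma difference was -0.80 (SE 0.12, adjusted p = 0.13). For both genes every WT library lay below every EV library. Smaller gaps were left for Gstp1, a glutathione S-transferase, at 14.1 and 13.7 against 8.53 and 8.44 in the WT IPs, with inputs of 10.8 and 8.48, and for Pnma5, a paraneoplastic antigen gene, at 5.204 and 5.46 against 2.11 and 2.96, with inputs of 4.5 and 2.60.

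**Figure D2:**
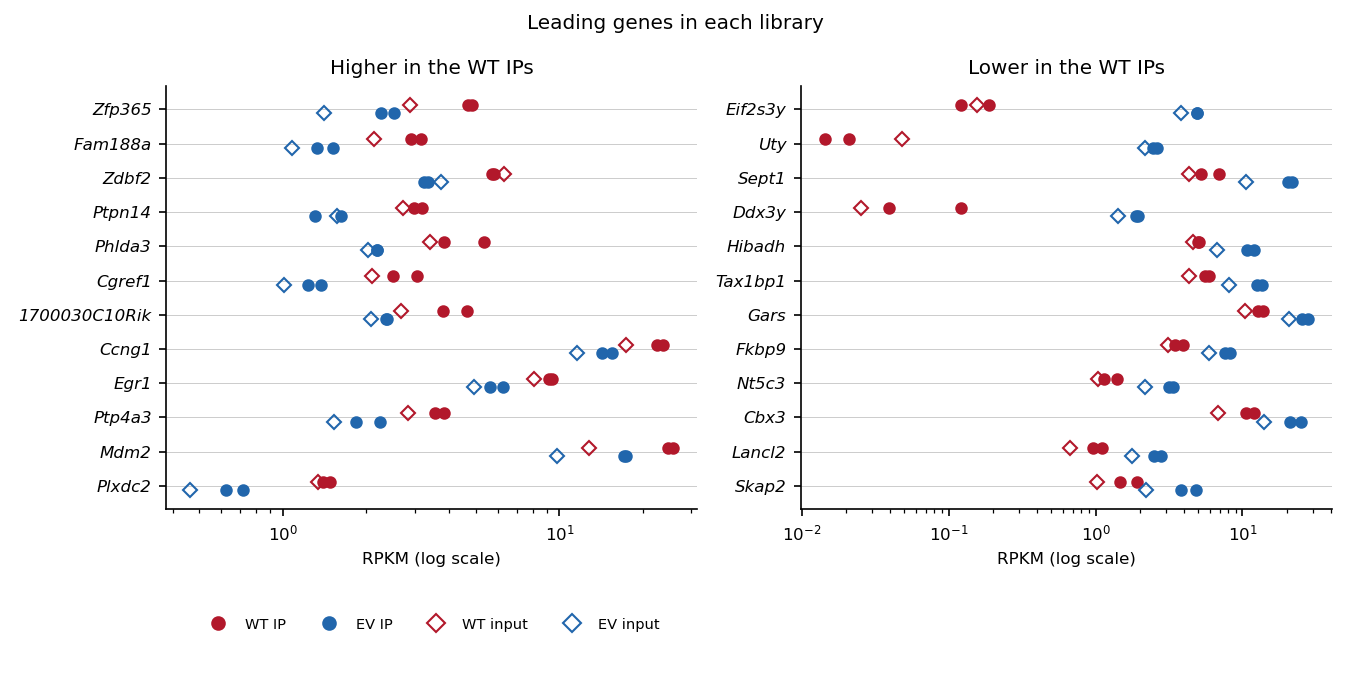
RPKM (logarithmic axis) of the 12 genes with the largest gap between the IPs in each direction among genes with at least 50 estimated reads, with 1 point per library, filled circles for IPs and open diamonds for inputs of the WT (red) and EV (blue) lines. In every gene shown the 2 WT IPs lie on 1 side of the 2 EV IPs, and the inputs lie in the same order.

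Most of the other leading genes on the lower side were neighbours on chromosome 6. Of the 23 genes lower by a gap of at least 1.5-fold, 12 lay in a stretch of 21 consecutive tested genes that spans 8.81 Mb (mm9 chr6:50060240-58870392, from Mpp6 to Herc3). This stretch was noticed after the values were seen and is given as a description. The number of gene copies in the stretch was not tested in any line. In it, 20 of 21 genes were lower in the WT IPs, 19 of them with no overlap between the IPs, and 20 of 21 were lower in the WT input. The median ratio of the WT to the EV IPs was 0.507 and that of the inputs 0.531. The median difference on log2 (RPKM + 1) was -0.67 in the IPs and -0.59 in the inputs. Over the other 335 tested genes of chromosome 6 it was 0.0055 and 0.011. The 15-gene window with the lowest median IP difference, among 8626 windows over all chromosomes, began at Mpp6 and had a median of -0.67. The next lowest window outside chromosome 6 had -0.23, in the microRNA cluster between Mir493 and Mir377 on chromosome 12.

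Tax1bp1, an autophagy receptor (chr6:52663723-52716774), had an RPKM of 13.6 and 12.46 in the EV IPs against 5.96 and 5.598 in the WT IPs, 8.09 in the EV input and 4.29 in the WT input. Hibadh, an enzyme of valine breakdown (chr6:52496222-52590383), had 11.9 and 10.7 in the EV IPs against 4.98 and 5.05, and its inputs were 6.70 and 4.64. The EV IPs were 2.26-fold above the WT IPs in mean RPKM for both genes, and the limma differences were -1.05 (SE 0.11, adjusted p = 0.071) for Tax1bp1 and -1.03 (SE 0.12, adjusted p = 0.077) for Hibadh. Cbx3, which encodes the heterochromatin protein HP1 gamma, had 24.9 and 21.0 in the EV IPs against 11.9 and 10.5, with inputs of 14.1 and 6.78. Gars, the glycyl-tRNA synthetase, had 27.9 and 25.3 against 13.8 and 12.7, with inputs of 20.8 and 10.4. Hnrnpa2b1, an RNA-binding protein of splicing and RNA transport, had 36.0 and 34.9 against 20.9 and 15.1, with inputs of 20.2 and 12.7. Cycs, which encodes cytochrome c, had 3.64 and 3.09 against 1.80 and 1.91. In each of these genes both EV IPs were above both WT IPs. Fkbp9, Nt5c3, Lancl2 and Skap2 followed with differences of -0.91, -0.91, -0.84 and -0.98.

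The tested genes on either side lay closer to 0. Tra2a, the last tested gene before it, had 14.6 and 17.6 in the EV IPs against 15.5 and 17.2 in the WT IPs, and Smarcad1, the first tested gene after it, had 3.67 and 4.17 against 3.81 and 3.33. The median IP difference was 0.0028 over the 12 tested genes before it (from -0.20 to 0.21) and -0.09 over the 12 after it (from -0.31 to 0.32). Nod1, an innate immune receptor, was the exception inside, with 1.39 and 1.64 in the EV IPs against 1.91 and 2.06 in the WT IPs. Both F266A IPs were above both WT IPs in 19 of 21 genes, and their median ratio to the EV IPs was 0.896. In the 12 genes after the stretch the F266A IPs had a median difference of 0.72 from the EV IPs. The Hoxa cluster lies inside the stretch, but its 11 genes in the table were not tested, with an RPKM of at most 0.334 in any library. In limma 19 of the 21 genes had an unadjusted p under 0.05 and none an adjusted p under it. After the inputs were subtracted, the median difference was -0.087 and 1 gene had an unadjusted p under 0.05.

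**Figure D3:**
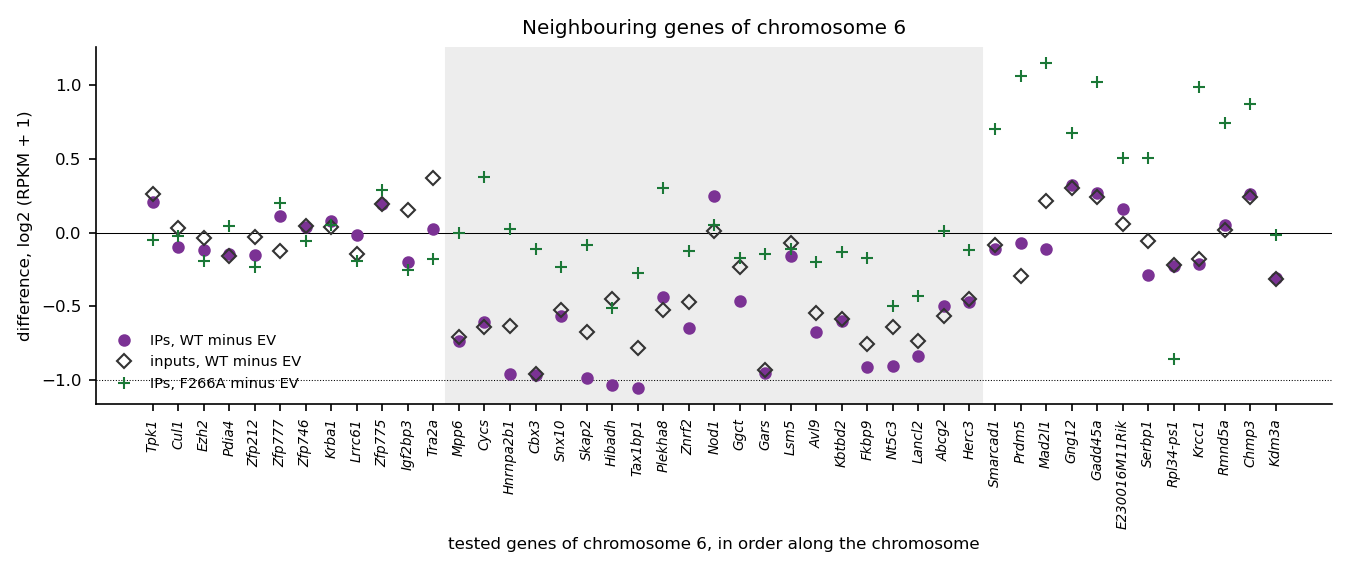
Differences on log2 (RPKM + 1) for tested genes of chromosome 6 in chromosomal order (horizontal axis, equal spacing), for the WT minus EV IPs (purple circles), the WT minus EV inputs (open diamonds) and the F266A minus EV IPs (green crosses), with the stretch of 21 genes shaded and a dotted line at -1. Inside the shading 20 of 21 WT points lie below 0 in the IPs and in the inputs.

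In the other direction the leading genes included several targets of p53, the transcription factor that responds to DNA damage and other stress by halting the cell cycle or inducing cell death. Mdm2, the ubiquitin ligase that degrades p53 and is itself a target, had an RPKM of 24.8 and 25.8 in the WT IPs against 17.4 and 17.1 in the EV IPs, 12.8 in the WT input and 9.82 in the EV input. Ccng1, cyclin G1, had 22.5 and 23.6 against 14.2 and 15.5, with inputs of 17.4 and 11.53. Phlda3, a repressor of Akt signalling, had 5.32 and 3.84 against 2.19 and 2.20, with inputs of 3.39 and 2.03. In all 3 the IPs did not overlap, and the WT input was the higher one. The limma differences were 0.52 (SE 0.23), 0.60 (SE 0.21) and 0.79 (SE 0.28), with adjusted p-values of 0.88, 0.80 and 0.82.

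Of 14 p53 targets tested, 11 had both WT IPs above both EV IPs and 2 had both below, against 21.2% and 17.8% of all genes. Their median difference was 0.39 in the IPs and 0.32 in the inputs, against 0.008 over all genes in the IPs. It stayed between 0.34 and 0.45 under the 10 alternatives tried. Perp, a membrane protein of p53-dependent cell death, had 7.31 and 3.92 in the WT IPs against 2.46 and 2.81 in the EV IPs. Zmat3, an RNA-binding zinc finger protein, had 18.3 and 16.9 against 13.1 and 12.9. Cdkn1a, which encodes the cell cycle inhibitor p21, did not share this order, with 3.50 and 3.81 against 4.12 and 4.03. The WT IPs had a summed RPKM of 120.9 and 118.4 over the list, the EV IPs 86.4 and 84.4, the WT input 83.9 and the EV input 62.9. The F266A IPs had 90.4 and 147.4, the lower value in the library that stood apart.

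Because these genes lay together, their promoters were searched for the p53 half-site, the motif of 10 bases that p53 binds in pairs and that reads the same on both strands. The windows run from 250 bases before to 50 after each start, from RefSeq (GRCm38.p6). Of 9 p53 targets matched by symbol, 5 held at least 1 half-site. The share was 7.47% of the tested genes with a promoter there, 9.55% of all 27025 genes and 5 of 15 cytoskeletal genes. The list holds known p53 targets, so a high share of half-sites was built into it and says nothing about these libraries. All 5 are shown, with 1 of the 2 matches of Cdkn1a. Mdm2, Ccng1 and Aen had both WT IPs above both EV IPs, Cdkn1a had both below, and the IPs of Bax overlapped, at 9.08 and 8.85 against 8.98 and 5.93. Each window is 30 bases long, on the strand of the gene, with the half-site in capitals.
Mdm2, chr10:117710925-117710954, minus strand: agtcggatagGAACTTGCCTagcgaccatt
Ccng1, chr11:40755452-40755481, minus strand: agacctgcccGGGCAAGCCTtggcactgaa
Aen, chr7:78895927-78895956, plus strand: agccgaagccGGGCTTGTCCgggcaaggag
Bax, chr7:45467080-45467109, minus strand: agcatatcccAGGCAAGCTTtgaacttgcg
Cdkn1a, chr17:29090918-29090947, plus strand: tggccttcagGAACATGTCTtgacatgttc
A match is a string of letters and not a measured binding site, and genes of both orders held one.

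The other leading genes on the higher side had varied roles. Zfp365, a zinc finger protein of genome stability, had an RPKM of 4.83 and 4.67 in the WT IPs against 2.27 and 2.53 in the EV IPs, 2.87 in the WT input and 1.41 in the EV input, a 1.98-fold difference in the mean of the IPs. Fam188a, a deubiquitinase, had 2.90 and 3.16 against 1.52 and 1.34, with inputs of 2.13 and 1.08, and the lowest adjusted p of these genes (difference 0.73, SE 0.11, adjusted p = 0.15). It ended a run of 6 consecutive tested genes on chromosome 2, from Mir669h, that were higher in both WT IPs. Their medians were 0.65 in the IPs and 0.55 in the inputs. The 15-gene window with the highest median IP difference also ended at Fam188a, with 0.36 in the IPs and -0.35 in the inputs. That window began at Mir669a-4, so run and window both started at microRNA genes. Reads may be shared among copies of such genes, so the members may not be separate measurements. Zdbf2, an imprinted zinc finger gene, had 5.78 and 5.68 against 3.24 and 3.34, with inputs of 6.30 and 3.74. Egr1, an immediate early transcription factor, had 9.20 and 9.40 against 6.23 and 5.61, with inputs of 8.06 and 4.91. In these 4 genes the difference of the inputs was about as large as that of the IPs. Ptpn14, a tyrosine phosphatase, had 3.19 and 2.98 against 1.62 and 1.31. Cgref1, Ptp4a3, Plxdc2 and 1700030C10Rik completed the leading 12, with IP differences between 0.55 for Plxdc2 and 0.71 for Cgref1.

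**Figure D4:**
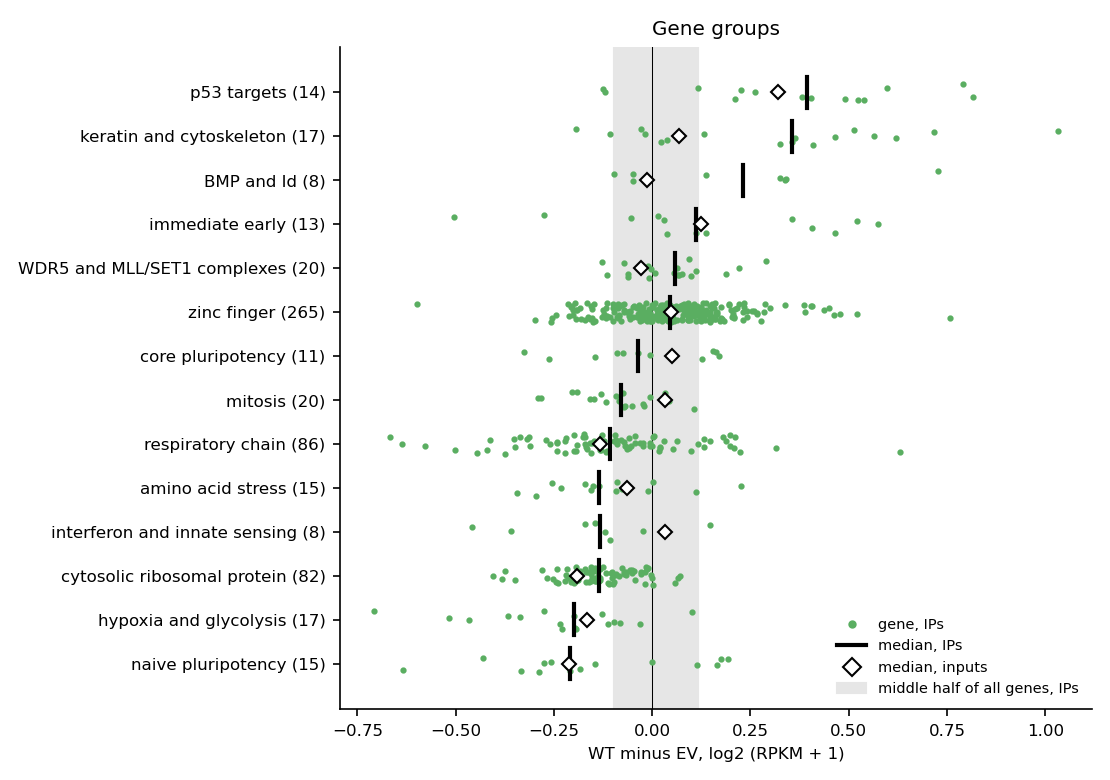
Difference of the WT and EV IPs on log2 (RPKM + 1) (horizontal axis) for the tested members of 14 gene groups, with 1 point per gene, the median of the IPs as a bar, the median of the inputs as an open diamond, and the range between the quartiles of all genes tested in grey. The median of the 14 p53 targets lies at 0.39 and that of the 15 naive pluripotency genes at -0.21, and in both groups the inputs lie on the same side.

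Genes of the keratin and actin cytoskeleton and the nuclear lamina formed 1 list, whose median rested mostly on 1 library. Of 17 tested, 10 had both WT IPs above both EV IPs and 0 had both below, against 21.2% and 17.8% of all genes, and 6 were higher at an unadjusted p under 0.05, with a median difference of 0.36 in the IPs and 0.069 in the inputs. Tagln, an actin-binding protein of smooth muscle, had an RPKM of 5.39 in WT IP replicate 1 and 1.43 in replicate 2, against 0.872 and 0.988 in the EV IPs. Krt18, a keratin of simple epithelia, had 3.61 and 1.0 against 1.07 and 0.890. These genes were high in WT IP replicate 1 and close to the EV IPs in replicate 2. Among the WT and EV libraries it held the highest sum of 2-cell-like markers, 6.10 against 1.23 in replicate 2 and 0.186 to 0.873 in the other WT and EV libraries (4 of 6 markers in the table), of 5 trophectoderm markers, 2.33 against 0.857 to 1.08 there, of 4 neural markers, 4.20 against 2.17 to 3.11, and of 4 mesoderm markers, 0.563 against 0.129 to 0.335. The F266A IP replicate 1 had a trophectoderm sum of 2.52. The part of these markers' cells in the result was not tested. Without that library the median of the list fell to 0.10, and it was 0.085 over the 10 members with an RPKM of at least 5 in 2 libraries. Other members were Myl9, a myosin light chain, at 5.89 and 3.50 against 2.35 and 2.43 with inputs of 1.46 and 1.32, and Cnn2, a calponin, at 13.8 and 11.7 against 8.83 and 8.39. Actg1, gamma actin, had 130.5 and 105.8 against 95.1 and 87.2. The limma difference was 0.72 (SE 0.19, adjusted p = 0.66) for Myl9, and 0.41 without WT IP replicate 1.

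Many cytoskeletal genes are targets of SRF, the serum response factor, which binds the CArG box. This motif, which reads the same on both strands, was found in the promoter windows of 3 of 15 cytoskeletal genes matched. The share was 1.57% of the tested genes with a promoter there and 1.81% of all genes. Since SRF targets are common among cytoskeletal genes, the higher share says nothing about these libraries. The 3 are shown with the CArG box in capitals, in windows of 30 bases on the strand of the gene (GRCm38.p6).
Myl9, chr2:156775293-156775322, plus strand: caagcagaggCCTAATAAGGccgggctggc
Cnn2, chr10:79988534-79988563, plus strand: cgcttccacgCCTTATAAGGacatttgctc
Actg1, chr11:120348566-120348595, minus strand: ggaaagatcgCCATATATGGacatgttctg
In Actg1 a p53 half-site overlaps the end of the CArG box. In each of the 3 genes both WT IPs were above both EV IPs, as in 10 of the 17 tested members of the list and 21.2% of all genes. Myl9 and Cnn2 had the largest gaps of the list, so the order of these 3 is no test of the motif.

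Among 13 immediate early genes 5 (38.5%) had both WT IPs above and 2 (15.4%) both below the EV IPs, against 21.2% and 17.8% of all genes, with a median difference of 0.11 that was 0.00020 without WT IP replicate 1. Besides Egr1, Zfp36, an RNA-binding protein that destabilises AU-rich mRNAs, had 16.6 and 14.8 against 10.4 and 10.9, and Btg2, an antiproliferative gene and p53 target, had 2.12 and 1.79 against 1.18 and 1.1. Ier3 went the other way, with 3.66 and 4.03 against 5.71 and 6.03. Of 8 BMP pathway genes 5 (62.5%) were above and 1 (12.5%) below without overlap, with a median of 0.23 in the IPs, 0.15 without WT IP replicate 1, and -0.012 in the inputs. Bmp4, a ligand of the pathway, had 4.15 and 3.66 against 2.74 and 3.02 with inputs of 1.08 and 1.14. Bmpr2, its type II receptor, had 4.32 and 4.18 against 3.16 and 3.23. Smad7, an inhibitor of the pathway, had 5.37 and 6.17 against 4.07 and 4.62. Id1, a target and inhibitor of bHLH factors, had 1.5 and 1.06 against 0.261 and 0.487, while its inputs differed little, at 0.531 and 0.537. Id1 rested on a mean of 23.8 estimated reads, and its limma difference was 0.73 (SE 0.16, adjusted p = 0.46).

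Of 17 glycolytic enzymes and hypoxia targets tested, 12 had both WT IPs below both EV IPs and 1 had both above, against 17.8% and 21.2% of all genes, and 5 were lower at an unadjusted p under 0.05, with a median difference of -0.20 in the IPs and -0.16 in the inputs, and the IP median stayed between -0.27 and -0.18 under the 10 alternatives. Pgk1, phosphoglycerate kinase, had an RPKM of 34.2 and 26.1 in the WT IPs against 53.7 and 45.5 in the EV IPs, 26.5 in the WT input and 32.1 in the EV input. Eno1, enolase, had 369.1 and 336.05 against 459.7 and 429.8, and Aldoa, an aldolase, had 48.7 and 54.7 against 68.6 and 65.2. Bnip3, a mitophagy receptor induced by hypoxia, had 8.74 and 10.6 against 14.6 and 13.8. The glucose transporter Slc2a3 was the 1 member above, at 69.9 and 75.5 against 68.1 and 67.2. The limma difference of Pgk1 was -0.71 (SE 0.16, adjusted p = 0.56).

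Genes of the naive pluripotent state had a median below 0, and the core factors had no settled direction. Of 15 naive genes 6 (40.0%) had both WT IPs below and 1 had both above the EV IPs, against 17.8% and 21.2% of all genes, and 2 were lower at an unadjusted p under 0.05. The median was -0.21 in the IPs and -0.21 in the inputs. Nr0b1, an orphan nuclear receptor on the X chromosome, had 6.56 and 6.26 in the WT IPs against 10.7 and 10.3 in the EV IPs, and inputs of 4.74 and 6.61. Klf4, a Kruppel-like factor of the reprogramming set, had 11.6 and 12.2 against 16.6 and 16.3, with inputs of 12.4 and 15.9. Esrrb, an orphan nuclear receptor, had 23.2 and 27.3 against 33.4 and 28.7. All 3 had both WT IPs below both EV IPs. Of 11 core genes 4 were above and 2 below without overlap. Pou5f1, which encodes Oct4, had 59.4 and 64.8 against 81.1 and 74.9, with inputs of 50.2 and 55.5, and Nanog had 12.3 and 12.3 against 10.2 and 11.8. The core median was -0.035 in the IPs and 0.051 in the inputs. The IP median was 0.029 after quantile normalization, 0.026 without WT IP replicate 2 and 0.0061 without EV IP replicate 1.

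Of 82 cytosolic ribosomal proteins tested, 29 had both WT IPs below and 0 both above the EV IPs, against 17.8% and 21.2% of all genes, and 78 had a difference below 0. The median was -0.13 in the IPs and -0.19 in the inputs. It was -0.021 after quantile normalization and -0.039 without EV IP replicate 1, and -0.22 without EV IP replicate 2. Rps28 had an RPKM of 183.5 and 152.9 in the WT IPs against 216.1 and 218.7 in the EV IPs, with inputs of 120.4 and 154.1. Of 86 respiratory chain subunits 23 (26.7%) were below and 6 (7.0%) above, against 17.8% and 21.2% of all genes. The median was -0.11 in the IPs and -0.13 in the inputs. The IP median was -0.0089 without WT IP replicate 2 and -0.0053 without EV IP replicate 1. It was -0.20 without WT IP replicate 1 and -0.19 without EV IP replicate 2. Cox5a, a subunit of cytochrome c oxidase, had 13.6 and 13.03 against 23.1 and 19.5, while its inputs were 11.9 and 11.9. Of 20 mitotic genes 10 were below and 1 above, with a median of -0.078 in the IPs and 0.033 in the inputs. Of 15 genes of the amino acid stress response, Atf4 among them, 6 were below and 1 above, with a median of -0.13 in the IPs and -0.0645 in the inputs. Of 8 genes of interferon response and innate sensing 4 were below and 0 above, with a median of -0.13 in the IPs and 0.032 in the inputs. In 6 of the 8 the WT input was the higher one. Ifitm2 was below, at 31.2 and 32.0 against 46.2 and 41.5, with inputs of 21.3 and 24.9.

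Wdr5 itself had an RPKM of 12.9 and 11.8 in the WT IPs against 9.34 and 10.5 in the EV IPs, 9.54 in the WT input and 8.05 in the EV input, with a limma difference of 0.29 (SE 0.12, adjusted p = 0.86). The F266A line had 8.79 and 8.18 in the IPs and 5.85 in the input, below the EV line in each. Both tagged lines transcribe a human WDR5 cDNA, and how many of its reads aligned to the mouse gene was not tested. Wdr5 was also the first of 5 consecutive tested genes on chromosome 2, ending at Ralgds, that were higher in both WT IPs, with medians of 0.26 in the IPs and 0.22 in the inputs. Of 20 tested genes of the MLL and SET1 complexes, 7 were above and 1 below without overlap, against 21.2% and 17.8% of all genes. The median was 0.059 in the IPs and -0.028 in the inputs, and the IP median was 0.032 without WT IP replicate 2 and 0.036 without EV IP replicate 1. Rbbp5, the subunit that WDR5 contacts, had 8.65 and 9.54 against 7.18 and 8.14. The study lists mRNAs enriched in its WDR5 RIPiT-seq whose genes an earlier screen had found important for ESC pluripotency. They are a small subset of its bound RNAs. Of 20 such genes tested, 6 were above and 4 below without overlap, against 21.2% and 17.8% of all genes, with a median of 0.099 in the IPs and -0.18 in the inputs. The IP median was 0.012 without WT IP replicate 1 and 0.20 without WT IP replicate 2, and 0.052 without EV IP replicate 2. That list was chosen on these libraries, so its count is not independent evidence. F2rl1, a protease-activated receptor, was above at 23.7 and 24.2 against 18.5 and 19.6, with inputs of 12.2 and 13.2, and Tdh, the threonine dehydrogenase of mouse ESCs, was below at 19.9 and 20.49 against 24.9 and 24.96, with inputs of 12.7 and 17.1.

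Among the 3 leading genes with few reads in each direction, 3 short noncoding RNAs were higher and Snord49a was lower. Snora68, an H/ACA small nucleolar RNA, had an RPKM of 1.95 and 2.19 in the WT IPs against 0.311 and 0.435 in the EV IPs, 1.48 in the WT input and 1.84 in the EV input. It rested on a mean of 4.09 estimated reads per IP, and its limma difference was 1.16 (SE 0.24, adjusted p = 0.46). Snord49a, a C/D small nucleolar RNA (mm9 chr11:62416952-62417023), had 1.19 and 1.5 against 3.25 and 4.17, with inputs of 1.75 and 1.30 and a mean of 3.77 estimated reads. The inputs of both lay in the reverse order of the IPs. The other leading genes with few reads on the lower side were Tuba3a, an alpha tubulin at 0.504 and 0.642 against 1.59 and 1.84, and the noncoding RNA 2210417A02Rik at 0.262 and 0.743 against 1.61 and 1.86, and their inputs had the order of the IPs. Over 83 tested small nucleolar and Cajal body RNAs, 16 (19.3%) were above and 9 (10.8%) below without overlap, against 21.2% and 17.8% of all genes, with a median of 0.06 in the IPs and 0.16 in the inputs, and the IP median lay between -0.039 and 0.18 under the alternatives.

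Mature microRNAs are shorter than these reads, and which transcripts gave the reads on microRNA genes was not tested. Of 220 microRNA genes tested, 165 had a difference above 0, 25 (11.4%) were above and 18 (8.2%) below without overlap, lower shares than the 21.2% and 17.8% of all genes, and the median was 0.21 in the IPs and -0.39 in the inputs. The IP median was 0.049 without WT IP replicate 1 and 0.36 without WT IP replicate 2, 0.35 and 0.37 at pseudocounts of 0.1 and 0.01, and 0.027 over the 31 with an RPKM of at least 5 in 2 libraries. Mir467f, which lies within Fxr2 on the opposite strand, had 2.82 and 5.36 in the WT IPs against 1.33 and 0.878 in the EV IPs, 2.28 in the WT input and 5.85 in the EV input, on a mean of 7.92 estimated reads. Mir28b had 1.65 and 1.62 against 0.609 and 0.266, with inputs of 1.34 and 1.16. The mature sequences of these leading microRNA genes (RefSeq, GRCm38.p6) are shown with the seed, bases 2 to 8, in capitals, and the 2 seeds differ.
mmu-miR-467f, chr11:69635419-69635439, minus strand: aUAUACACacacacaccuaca
mmu-miR-28b, chr8:73016523-73016543, plus strand: aGGAGCUCacaaucuauuuag
Mir467f belongs to a family of near-identical copies, so its reads may be shared among them. Copies were counted as separate genes, and 175 of all genes tested had values identical to those of another gene.

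A smaller set of well-covered transcripts differed in the IPs without a difference of the same sign in the inputs. They were 12 of the 100 leading genes on the higher side and 13 of the 100 on the lower, and were picked out after their values were seen. Epha2, an ephrin receptor, had an RPKM of 5.79 and 4.90 in the WT IPs against 3.42 and 3.62 in the EV IPs, 3.86 in the WT input and 3.96 in the EV input. Arl2bp, a partner of the small GTPase ARL2, had 3.29 and 3.08 against 2.10 and 2.38, with inputs of 1.80 and 2.23. On the lower side Ap3s1, a subunit of the AP-3 adaptor, had 3.63 and 3.60 against 5.24 and 5.37, with inputs of 2.90 and 2.06. Rnaseh2b, a subunit of RNase H2, had 8.72 and 6.45 against 13.2 and 11.6, with inputs of 7.90 and 6.81. In Arl2bp, Ap3s1 and Rnaseh2b the inputs lay in the reverse order of the IPs, and in Epha2 they were nearly equal (difference -0.028), as they were in Nudt5 (-0.0077), Phyh (0.0095) and Cox5a (0.0071). With the inputs subtracted, the limma differences were 0.51 (SE 0.20) for Epha2, 0.58 (SE 0.19) for Arl2bp, -0.80 (SE 0.19) for Ap3s1 and -0.84 (SE 0.30) for Rnaseh2b, each with an adjusted p of 1. The others on the higher side included Slc27a1, Apitd1 and Psmc4, and on the lower side Vps29, Atp5j, Laptm5 and the noncoding RNA Snhg6.

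The counts of the remaining lists are to be read against the 21.2% above and 17.8% below of all genes. Among 265 zinc finger genes 82 (30.9%) were above and 27 (10.2%) below without overlap, with a median of 0.045 that was 0.019 without WT IP replicate 2, 0.085 without WT IP replicate 1, 0.074 without EV IP replicate 2 and 0.11 with an RPKM of at least 5 in 2 libraries. Among 71 histone genes 2 were above and 4 below, with a median of -0.023 in the IPs and -0.26 in the inputs, and the IP median was 0.032 after quantile normalization, 0.083 without WT IP replicate 2 and 0.021 without EV IP replicate 1. Of 18 Polycomb genes 1 was above and 2 below, and of 9 Nodal pathway genes 3 were above and 1 below. Of 20 imprinted genes 4 were above, among them Peg10 at 14.4 and 8.91 against 6.35 and 6.90 and Grb10 at 19.5 and 14.5 against 10.7 and 11.9, and 3 were below. Of 14 genes of FGF and ERK feedback 4 were above and 1 below, and of 26 nuclear long noncoding RNAs 5 were above and 4 below. Of 57 translation factors 5 were above and 14 below, of 52 splicing factors and hnRNPs 2 and 12, and of 37 proteasome subunits 3 and 7, with medians of -0.054, -0.036 and -0.061. Without WT IP replicate 2 these medians were 0.0078, 0.0047 and 0.029, and without EV IP replicate 1 they were 0.0097, 0.0029 and -0.0047, so they have no settled direction. Of 76 mitochondrial ribosomal proteins 12 were above and 12 below, of 17 genes of cholesterol synthesis 3 and 3, of 12 heat shock genes 1 and 2, and of 6 small nuclear, U and other short structural RNAs 1 and 0. Of 11 primitive endoderm genes 1 was above and 5 below, of 6 primed and early lineage genes 1 and 1, and of 6 germ cell genes 0 and 2. Srgn, 1 of the 5 primitive endoderm genes below, passed the filter only through the F266A line. Its RPKM was at most 0.238 in the WT and EV libraries, so its order says nothing about the list. The 3 fibroblast genes and the 1 gene of the 2-cell-like list that were tested, Eif1a, had overlapping IPs.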

How the data were processed

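Reads of 50 nt were aligned by the authors with TopHat 1.1.3 (mm9), and a script of theirs gave the deposited RPKM for each RefSeq symbol. How strand and reads with several alignments were treated is not given in the sources used here, so genes with near-identical or overlapping copies are uncertain. Since RPKM do not hold counts, count models were left out. The value of 1 read, taken from the lowest RPKM times exon length (GENCODE M1), put the depth between 13400000 and 50200000 mapped reads, and read numbers in the text are estimates that cover counting error only. Values were tested as log2 (RPKM + 1), which understates changes of low genes, with limma 3.58.1 in R 4.3.3 (lmFit and eBayes with trend, 1 coefficient per line and fraction, Benjamini-Hochberg adjustment over 9787 genes), after tests on simulated data. Other steps used Python 3.11.15.

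Named genes were, in each direction, the 12 with the largest gap between the IPs at a mean of at least 50 estimated reads (without an exon length, an RPKM of at least 5), the 3 with the largest gap among the others, up to 2 members of each gene list, and Wdr5. Other members of the lists are given as examples, and the chromosome 6 stretch, Zfy1, Zfy2 and genes whose inputs oppose were added after their values were seen. The genes, lists and tests were chosen with earlier results of these data known. No pair of libraries held an equal value above 0. The p-values measure the spread between libraries, which may be technical. The alternatives were pseudocounts of 0.1 and 0.01, filters on RPKM, quantile and median ratio scaling, fits to fewer libraries, a block for the replicate number, eBayes with no trend, and each WT and EV IP left out in turn. Fits with 1 or the other F266A IP left out, the list medians and a count without chromosome 6 and Y genes were added after seeing the data.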

Additional observations from a re-analysis of the deposited data

How the results depend on the processing

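The count of 0 genes between the WT and EV IPs became 2 without a filter on low values, 3 with an RPKM of at least 1 in all 4 IPs, 4 with an RPKM of at least 5 in 2 libraries, 2 after quantile normalization, and 7 in the fit to the 4 IPs and in the fit to the 6 libraries of WT and EV. Leaving out 1 IP gave 0 to 7, with 0 without any 1 WT or EV IP and 7 without F266A IP replicate 1 or 2. The labels do not say whether replicate numbers pair the samples. The differences of replicate 1 from replicate 2 correlated with r = 0.11 (WT and EV), 0.26 (WT and F266A) and 0.012 (EV and F266A). Such values cannot settle whether the samples were paired. A fit blocked on the replicate number also gave 7, all lower, but only Sept1, Tax1bp1 and Hibadh were among those 7 genes, and Cbx3, Fkbp9, Snord49a and Mir1843b were not. With the inputs subtracted the count was 45 without a filter and 0 otherwise. Genes without overlap and with a 1.5-fold gap numbered 41 higher and 46 lower at a pseudocount of 0.1, 55 and 53 at 0.01, 3 and 12 with an RPKM of at least 5, and 5 higher with an RPKM of at least 1 in all 4 IPs. Without the chromosome 6 stretch and the Y chromosome 8 were lower. Without a gap they numbered 4038 higher and 2791 lower without a filter, and 652 and 811 with an RPKM of at least 5. Leaving out 1 WT or EV IP gave 3253 to 3910 higher and 2802 to 3482 lower, and with the gap 31 to 77 and 38 to 98, since 3 libraries overlap less often than 4. Of 1483 alternative values of the 90 named genes, 3 changed sign, all with 1 IP left out. Eif1a, a translation factor gene of the 2-cell-like list, ranged from -0.19 to 0.0078, above 0 without WT IP replicate 2. Rmrp, a noncoding RNA, ranged from -0.062 to 0.10, and was -0.051 without WT IP replicate 2 and -0.062 without EV IP replicate 1. The cause of these shifts was not tested. Depth limits the short RNAs, which rested on few estimated reads.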
